A study of Mus musculus with 6 samples.

Results

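The miR-26 family was followed in microRNA (miRNA) libraries from extracellular vesicles of mouse brain, the membrane-bound particles that cells release. The 3 SE libraries came from vesicles of mice that had gone through status epilepticus, a prolonged seizure, and the 3 CON libraries from vesicles of control mice, with a time of 24 hr in the series title. The strain, sex and age of the mice, the agent behind the seizures and whether a library is 1 animal or a pool are not stated in the sources used here. All entries whose name starts with miR-26a or miR-26b were taken. They are 5 of the 1926 listed miRNAs, and all 5 are among the 775 detected in any library. They are the guide arms miR-26a-5p and miR-26b-5p, the arms that enter the silencing complex, and 3 opposite arms, miR-26a-1-3p, miR-26a-2-3p and miR-26b-3p, which are mostly discarded.

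miRNAs pair with messenger RNAs mainly through the seed, bases 2 to 8 from the 5′ end, and lower the output of the messages they bind. The miR-26 hairpins lie in introns of the Ctdsp genes, which encode small phosphatases that the transcriptional repressor REST recruits to keep neuronal genes off outside neurons. In zebrafish, miR-26b acts on the message of its own host, ctdsp2, during neuron formation. A known target in mammals is Ezh2, the enzyme that writes the H3K27 methyl mark. miR-26a is abundant in brain, where it is expressed in neurons as well as in other cells.

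The mature arms are shown first because what could be counted apart depends on them, with the seed in capitals (RefSeq, GRCm38.p6, where all 5 members were found).
miR-26a-5p: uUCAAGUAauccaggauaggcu
miR-26b-5p: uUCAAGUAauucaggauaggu
miR-26a-1-3p: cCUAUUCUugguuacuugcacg
miR-26a-2-3p: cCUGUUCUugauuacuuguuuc
miR-26b-3p: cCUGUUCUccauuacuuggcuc

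The guide arms share the seed UCAAGUA, and no other of the 1679 mature mouse miRNAs in the RefSeq table carries it. Counted from 1 at the 5′ end, with the base of miR-26a-5p first, they differ by C11U and C21U over the 21 positions they share, and miR-26a-5p has 22 bases against 21. The authors listed them as separate entries, but how reads with a mismatch were assigned is not stated in those sources, so a small exchange of reads between them was not tested. Of the opposite arms, miR-26a-2-3p and miR-26b-3p share the seed CUGUUCU, and miR-26a-1-3p departs from both at A4G.

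The hairpins are shown because miR-26a-5p comes from 2 of them, with the mature arms in capitals.
Mir26a-1: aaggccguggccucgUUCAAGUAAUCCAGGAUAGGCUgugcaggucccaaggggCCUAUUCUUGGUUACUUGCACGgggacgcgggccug
Mir26a-2: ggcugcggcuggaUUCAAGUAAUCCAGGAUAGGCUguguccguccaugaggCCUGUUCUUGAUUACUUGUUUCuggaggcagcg
Mir26b: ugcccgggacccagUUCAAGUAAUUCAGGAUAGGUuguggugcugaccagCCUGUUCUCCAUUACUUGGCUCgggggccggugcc

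Each hairpin lies on the plus strand, in an intron of a host gene on the same strand (GRCm38.p6, GENCODE M21). Mir26a-1 is at chr9:119031796-119031885, in intron 5 of 7 of the transcript Ctdspl-201. Mir26a-2 is at chr10:126995530-126995613, in intron 5 of 7 of Ctdsp2-202. Mir26b is at chr1:74394310-74394394, in intron 4 of 6 of Ctdsp1-201. The miR-26a-5p sequence is identical in Mir26a-1 and Mir26a-2, so its reads cannot be split between Ctdspl and Ctdsp2, while the 3p arms of these hairpins differ at 6 of 22 positions and can be.

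Values are RPM, the reads of a miRNA after each library was set to 1000000 miRNA reads. The libraries held 6016533 to 10845434 miRNA reads in SE and 5482407 to 6504884 in CON. Thus 3 reads, the limit for a true count of 0, are worth 0.277 to 0.547 RPM depending on the library. Floors, and the intervals given for shares of reads, cover counting error only, while intervals of fold changes rest on the spread between libraries. Since no library lists a miRNA with fewer than 2 reads, a 0 may hide a single read, and its limit then lies above 3 reads. The CON rows of the deposited RPM table do not stand under their own names, and every CON value below was first put back under its name through base means, the averages of normalized reads in the authors' deposited table of fold changes. The labels do not say that libraries came from separate animals, so the spread behind the tests may be technical. No value in the files checks the SE and CON labels from which directions are read.

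The libraries carried brain miRNAs. The neuronal markers miR-124-3p, miR-9-5p and miR-128-3p, 3 of 3, stood between 1788 and 6814 RPM in SE and between 1689 and 10149 RPM in CON. Of the oligodendrocyte markers, miR-338-3p reached 214 to 291 RPM in SE and 269 to 424 RPM in CON, while miR-219a-5p was at most 0.598 RPM in SE libraries and at 0 in all CON libraries. Of the red cell markers, miR-144-3p was at 0 in both groups, miR-451a was undetected in SE and at most 0.922 RPM in CON, and the merged entry miR-486a-5p/486b-5p stood at 16.8 to 32.2 RPM in SE and 19.1 to 28.6 RPM in CON. Of the 3 microglia and leukocyte markers, miR-155-5p ran from 21.4 to 28.2 RPM in SE against 99.4 to 111 RPM in CON and was called lower in SE by limma (adjusted p = 4.36e-06), while miR-223-3p and miR-142a-3p ranged between 4.63 and 13.6 RPM in SE and between 3.47 and 16.4 RPM in CON. The endothelial miR-126a-3p and the hepatocyte miR-122-5p ran from 3601 to 4285 and from 89.4 to 114 RPM in SE, against 3998 to 5346 and 150.2 to 233 RPM in CON.

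miR-26a-5p was the leading member, and it did not pass the test between the groups. Its level was 15459.8, 10669 and 12643 RPM in SE replicates 1, 2 and 3, against 10896, 13289.8 and 14156 RPM in CON replicates 1, 2 and 3. SE replicate 1 held the highest value and SE replicate 2 the lowest, so the groups overlapped over the whole CON range. It averaged 12924 RPM ± 2408 over SE and 12780.4 RPM ± 1689 over CON (SD, n = 3 each). It ranked 10th to 12th of all miRNAs in SE libraries and 11th to 13th in CON libraries.

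miR-26b-5p was lower in all 3 SE libraries than in all 3 CON libraries, by a margin that did not pass the test either. It stood at 3009, 2898 and 2630.4 RPM in SE replicates 1, 2 and 3, against 3483, 3045 and 3775 RPM in CON replicates 1, 2 and 3. The highest SE value and the lowest CON value, 3009 and 3045 RPM, lay close together, so the absence of overlap is narrow. The means were 2846 RPM ± 195 for SE and 3434 RPM ± 368 for CON (SD, n = 3 each), a ratio of 0.829. Its rank was 26 to 28 in SE libraries and 24 to 28 in CON libraries.

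**Figure D1:**
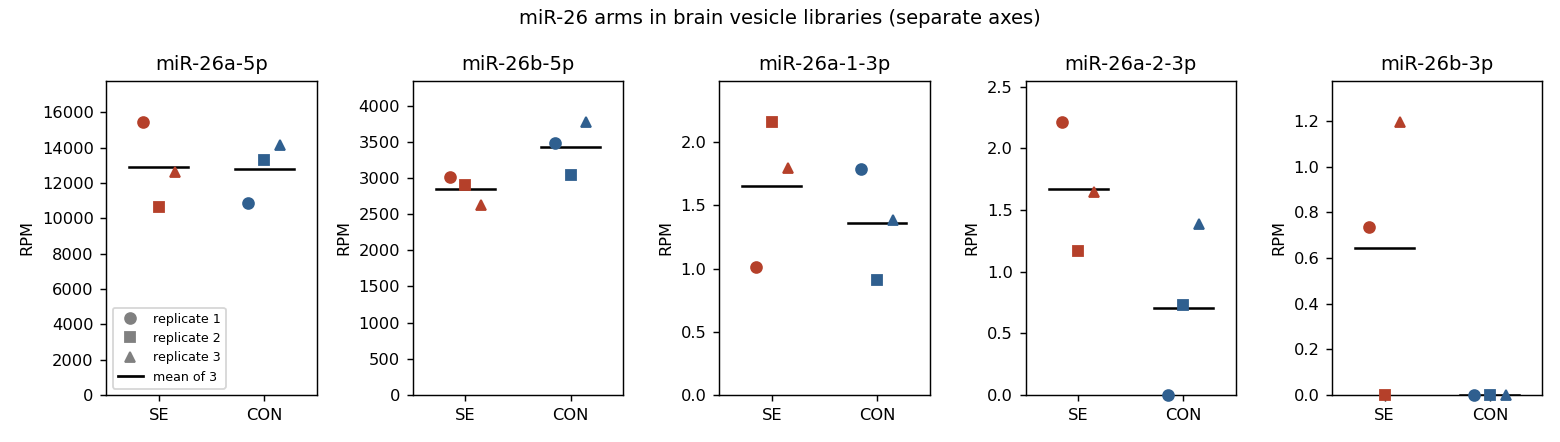
RPM of each miR-26 arm in the 3 SE and 3 CON libraries, 1 panel and 1 linear axis per arm; symbols are replicates and black lines group means. miR-26a-5p overlaps between groups, miR-26b-5p lies at 2630.4 to 3009 RPM in SE and 3045 to 3775 RPM in CON libraries, and the 3p arms stay at or below 2.21 RPM.

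The comparison asks which miRNAs of brain vesicles differ in abundance after status epilepticus. It was tested with limma-trend on log2(RPM + 1), two-sided, for the 290 miRNAs that averaged 10 RPM or more, and a miRNA was called at an adjusted p (Benjamini-Hochberg, over all 290) under 0.05. Both guide arms were tested and 0 were called, where limma called 3 of the 290, or 1.03%. At an unadjusted p under 0.05 there were 0 members, against 27 of the 290, or 9.31%. The log2 fold change of SE relative to CON was 0.01 for miR-26a-5p in limma (standard error 0.15, 95% interval -0.30 to 0.32), with an adjusted p of 0.979. That interval spans 0.812-fold to 1.25-fold. For miR-26b-5p it was -0.27 (standard error 0.15, 95% interval -0.59 to 0.05). Its adjusted p from limma was 0.641, and 0.0947 before adjustment. The interval spans 0.666-fold to 1.04-fold.

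SE values below all CON values, as seen for miR-26b-5p, occurred in 39 of the 290 miRNAs, or 13.4%. In either direction, groups without overlap were seen for 43, or 14.8%, with SE above CON for 4, or 1.38%. A lower log2 fold change than that of miR-26b-5p was found for 64 of the 290. miR-26b-5p is thus 1 of many miRNAs with this pattern. The median log2 fold change of the 290 was -0.07. Scaling the libraries by median of ratios moved that median by 0.10, to 0.03. The log2 fold change was then 0.11 for miR-26a-5p and -0.16 for miR-26b-5p, with limma adjusted p of 0.792 and 0.762. Relative to the median of all miRNAs, miR-26a-5p differed by 0.08 with RPM and 0.08 after median-of-ratios scaling, and miR-26b-5p by -0.20 and -0.19.

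The sign for miR-26a-5p rested on single libraries. Its log2 fold change was -0.13 without SE replicate 1, the library with its highest value, and -0.10 without CON replicate 1, the CON library with its lowest. miR-26b-5p kept a negative value without any 1 of the 6 libraries, from -0.35 without CON replicate 2 to -0.20 without CON replicate 3. Without CON replicate 2, the unadjusted limma p of miR-26b-5p was 0.0310 and the adjusted p 0.261. In that fit 45 of 294 miRNAs were at an unadjusted limma p under 0.05, beside 27 of 290 with all 6 libraries.

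**Figure D2:**
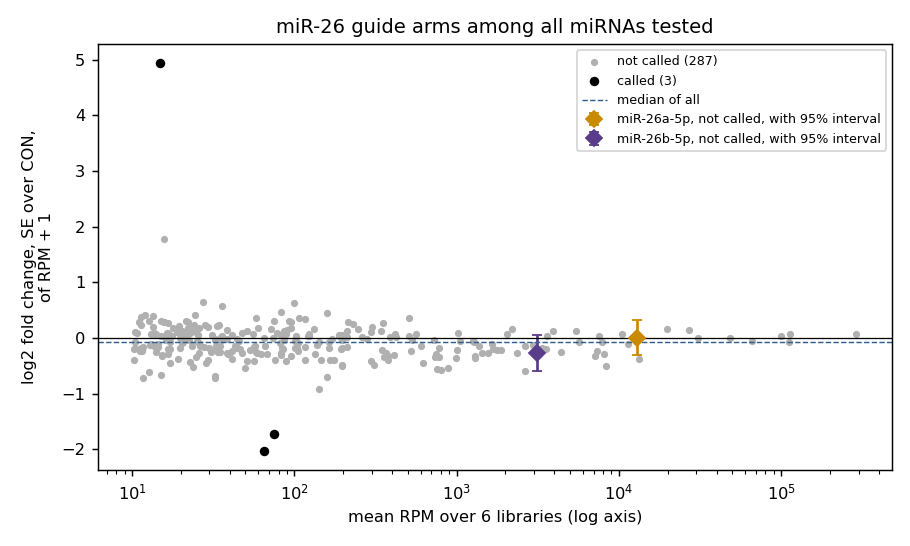
Log2 fold change, SE over CON, of RPM + 1 against mean RPM over the 6 libraries (log axis) for the 290 miRNAs tested, with the 3 called miRNAs in black, the median of all dashed, and the guide arms with their 95% intervals. The intervals of miR-26a-5p (-0.30 to 0.32) and miR-26b-5p (-0.59 to 0.05) both include 0.

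None of the members, 0 of 5, was called in the authors' deposited table at an adjusted p under 0.05, where that table calls 8 of 772, or 1.04%. The direction is not named there, and by the put-back reads its positive values mean higher in CON. The put-back step already sought miRNAs with SE reads alone among strongly negative fold changes, so this direction was assumed at its start. The authors' deposited table gives -0.11 (standard error 0.17) for miR-26a-5p, 0.17 (standard error 0.09) for miR-26b-5p, -0.40 (standard error 0.79) for miR-26a-1-3p, -1.32 (standard error 1.26) for miR-26a-2-3p and -4.49 (standard error 3.67) for miR-26b-3p. The adjusted p in the authors' deposited table is 0.975 for each of the 5. The smallest unadjusted p among them in the authors' deposited table is 0.0765, for miR-26b-5p. These values are not independent of the RPM comparison, since the same reads and the base means of that table are behind both.

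For the guide arms, the reads put back under the names gave the same fold changes to 2 decimals as that table. This does not check which CON row belongs to a name, since any row with the matched total gives the same ratio. Strongly negative fold changes of that table also helped to choose the miRNAs that set the SE size factors, which scale the libraries. Divided by the size factors, the put-back reads gave a log2 ratio, CON over SE, of -0.11 for miR-26a-5p and 0.17 for miR-26b-5p. For miR-26a-1-3p it was -0.43 against -0.40 in that table, and for miR-26a-2-3p -1.32 in both. As deposited, the CON row now under miR-26a-5p stood under miR-191-5p, while the row of miR-26b-5p already stood under its own name. The matched row differed from the expected total by a relative 7.6e-11 for miR-26a-5p and the next closest row by 0.0911. With the CON rows left as deposited, miR-26a-5p would have had 14624, 14688 and 15735 RPM in CON replicates 1, 2 and 3.

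The 3p arms were scarce, with 11, 13 and 12 reads of miR-26a-1-3p in SE replicates 1, 2 and 3, against 10, 5 and 9 in CON replicates 1, 2 and 3. That is 1.66 RPM ± 0.585 for SE and 1.36 RPM ± 0.438 for CON (SD, n = 3 each), and the groups overlapped. This arm reports on the Ctdspl hairpin. miR-26a-2-3p, the arm that reports on the Ctdsp2 hairpin, had 24, 7 and 11 reads in SE libraries, against 0, 4 and 9 reads in CON libraries. Its level was 2.21, 1.16 and 1.64 RPM in SE and 0, 0.730 and 1.38 RPM in CON replicates 1, 2 and 3. SE replicate 2 lay below CON replicate 3, so these groups overlapped too.

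miR-26b-3p, from the Ctdsp1 hairpin, was seen with 8 reads each in SE replicates 1 and 3 and with 0 in SE replicate 2 and in all CON libraries. The CON value of 0 follows from the put-back step, which left no CON reads for this name. miR-26b-3p, at -4.49 in the authors' deposited table, was itself among the miRNAs that set the SE size factors. Its CON value of 0 is therefore not an independent result. No fold is given, since 1 SE library was at 0 as well and the CON zeros have a limit near the SE values. In the CON libraries 3 reads, the limit for a true count of 0, are worth 0.461 to 0.547 RPM. All 3 opposite arms lay under the 10 RPM filter and were not tested for a difference in the main comparison. Without that filter, limma gave an adjusted p of 0.939 for miR-26a-1-3p and 0.891 for miR-26a-2-3p and miR-26b-3p.

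As a share of all miR-26 reads, the opposite arms were higher in each SE library than in each CON library. They made up 0.0215% (43 reads, 95% Wilson interval 0.0159 to 0.0289%) in SE replicate 1, 0.0245% (20 reads, 0.0159 to 0.0378%) in SE replicate 2 and 0.0303% (31 reads, 0.0214 to 0.0430%) in SE replicate 3. In CON replicates 1, 2 and 3 they made up 0.0124% (10 reads, 0.00675 to 0.0229%), 0.01005% (9 reads, 0.00529 to 0.0191%) and 0.0154% (18 reads, 0.00976 to 0.0244%). The intervals of SE and CON libraries overlapped for every pair other than SE replicate 3 with CON replicate 2, and the share is given as a description, with no test. The means were 0.0254% ± 0.00451 in SE and 0.0126% ± 0.00270 in CON libraries (SD, n = 3 each). Of the opposite arms, miR-26a-2-3p averaged 1.67 RPM ± 0.525 for SE against 0.704 RPM ± 0.692 for CON, and miR-26b-3p 0.644 RPM ± 0.603 against 0 (SD, n = 3 each), while the means of miR-26a-1-3p lay closer together. The 0 of miR-26b-3p in CON was set by the put-back step. SE replicate 1 was the deepest library, and the part of depth in the difference in share was not tested. With the CON rows as deposited, the share in SE exceeded that in CON by 0.00229 percentage points in place of 0.0128.

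The share of the opposite arm differed widely between families, and in the other 3 compared its SE and CON values overlapped. let-7 3p arms took 0.0115% ± 0.00104 of let-7 reads in SE and 0.0139% ± 0.00574 in CON libraries, a share of the same order as in miR-26. The miR-29 5p arms took 0.383% ± 0.102 in SE and 0.287% ± 0.0683 in CON libraries, and the miR-30 3p arms took 37.0% ± 3.11 in SE and 39.0% ± 2.71 in CON libraries (SD, n = 3 each for all). The strong preference for the 5p arm is thus shared with let-7 in these libraries and not with miR-30, a comparison of levels given with no test.

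The guide arms did not keep a fixed proportion to each other. miR-26a-5p had 5.14, 3.68 and 4.81 reads per read of miR-26b-5p in SE replicates 1, 2 and 3, against 3.13, 4.36 and 3.75 in CON replicates 1, 2 and 3. The ratio averaged 4.54 ± 0.764 in SE and 3.75 ± 0.618 in CON libraries (SD, n = 3 each), and the groups overlapped. RPM does not correct for differences in how well each sequence is ligated and amplified, so the ratio is comparable between libraries but does not give the molar ratio of the arms. Summed over the 5 members, the family took 1.58% ± 0.249 of all miRNA reads in SE and 1.62% ± 0.178 in CON libraries (SD, n = 3 each), from 1.36 to 1.85% in SE and from 1.44 to 1.79% in CON libraries. The let-7 family, with miR-98, held most reads of each library, 4821842 to 8535352 in SE and 4336247 to 5074076 in CON. RPM and shares of other miRNAs thus depend on the let-7 share, whose part in the differences was not tested. In vesicle RNA, fewer vesicles of a source and less miRNA per vesicle cannot be told apart.

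**Figure D3:**
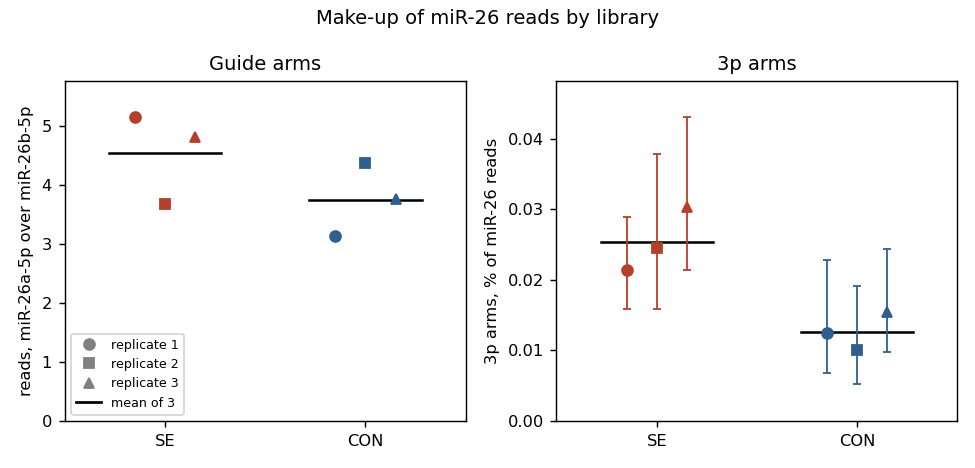
Left, reads of miR-26a-5p over reads of miR-26b-5p by library, from 3.68 to 5.14 in SE and 3.13 to 4.36 in CON; right, 3p arms as percent of miR-26 reads with 95% Wilson intervals, from 0.0215 to 0.0303% in SE and 0.01005 to 0.0154% in CON. Symbols are replicates and black lines group means.

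Among libraries of a group, miR-26a-5p varied more than miR-26b-5p, a description with no test. The SD of log2(RPM + 1) within groups was 0.24 for miR-26a-5p and 0.13 for miR-26b-5p, where the median over the 47 miRNAs that averaged 1000 RPM or more was 0.17. Of these 47, 13 varied more than miR-26a-5p and 32 varied more than miR-26b-5p. In level, miR-26a-5p ranked 11 over all 6 libraries, after miR-7a-5p (19877 RPM) and miR-191-5p (13333 RPM) and before miR-151-5p (11337 RPM) and miR-382-5p (10504 RPM). The means of miR-191-5p (11651 RPM), miR-151-5p (11011 RPM) and miR-382-5p (10799 RPM) lay within 1 SD of miR-26a-5p in SE, and so did that of miR-151-5p (11663 RPM) in CON, where miR-191-5p (15016 RPM ± 624, SD, n = 3) was further above and miR-382-5p (10208 RPM) further below. miR-26b-5p ranked 27, after miR-125b-5p (3560 RPM) and miR-103-3p/107-3p (3352 RPM) and before miR-24-3p (2951 RPM) and miR-335-5p (2639.7 RPM). miR-24-3p, with means of 2829 RPM for SE and 3074 RPM for CON, was within 1 SD of miR-26b-5p in both groups.

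The profiles of the guide arms over the 6 libraries were closer to those of other miRNAs than to each other. Likeness was measured as the root-mean-square difference of log2(RPM + 1) over the 6 libraries after each miRNA's mean was subtracted, so 0 is an identical course. miR-26a-5p and miR-26b-5p differed by 0.24, which put miR-26b-5p at place 99 of 289 for miR-26a-5p and miR-26a-5p at place 147 of 289 for miR-26b-5p. Closest to miR-26a-5p was miR-181a-5p, a miRNA of lymphocytes and neurons that has been reported to respond to neuronal activity, at 0.04. miR-1839-5p and miR-30d-5p, a member of the miR-30 family, followed at 0.08 each. Such profiles come from the same libraries and share their depth and scaling, and the likeness is given as a description.

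miR-181a-5p went with miR-26a-5p library by library at a far lower level. It stood at 834, 603 and 715 RPM in SE replicates 1, 2 and 3 and at 613, 781 and 795 RPM in CON replicates 1, 2 and 3. Both miRNAs were highest in SE replicate 1 and lowest in SE replicate 2, with CON replicate 1 next to the bottom. The limma log2 fold change of miR-181a-5p was -0.03 (standard error 0.19, adjusted p = 0.966).

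miR-26b-5p was closest to miR-126a-3p, the endothelial miRNA that lies in an intron of Egfl7, at 0.06. miR-30a-3p, the opposite arm of miR-30a-5p, and miR-28a-3p came next at 0.08 and 0.09. miR-126a-3p stood at 4122, 4285 and 3601 RPM in SE replicates 1, 2 and 3 and at 5089, 3998 and 5346 RPM in CON replicates 1, 2 and 3. Its SE and CON values overlapped, with a limma log2 fold change of -0.26 (standard error 0.15, adjusted p = 0.641). This endothelial marker moved with miR-26b-5p, and its part in the lower miR-26b-5p of SE libraries was not tested.

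**Figure D4:**
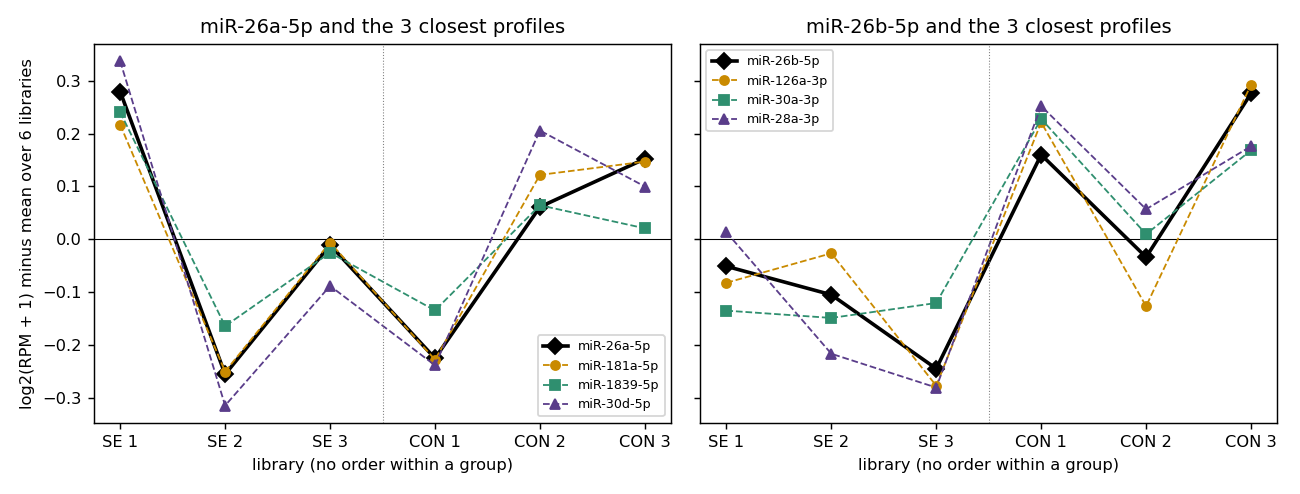
log2(RPM + 1) minus the mean over the 6 libraries for miR-26a-5p (left) and miR-26b-5p (right), each in black with its 3 closest profiles; lines only join the libraries of a miRNA. miR-181a-5p lies at a root-mean-square difference of 0.04 from miR-26a-5p, and miR-126a-3p at 0.06 from miR-26b-5p.

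miRNAs reported as targets of REST, whose phosphatase cofactors the host genes encode, were described as a list of 10. All 10 were tested, and 0 passed in either direction by limma over all miRNAs, beside 3 of the 290, or 1.03%. At an unadjusted p under 0.05 there were 3 of the 10, beside 27 of the 290, or 9.31%. They were miR-29a-3p, miR-132-3p and miR-212-3p, all lower in SE, and miR-132-3p and miR-212-3p are counted again in the next list. The log2 fold change was below 0 for 7 and above 0 for 3, with a median of -0.25 beside -0.07 over the 290. The most abundant were miR-29a-3p, which acts on collagens and other matrix genes, at -0.51 (adjusted p = 0.191), the neural miR-9-5p and its partner arm miR-9-3p at -0.24 and -0.26, and miR-139-5p at -0.08. miR-124-3p, the most neuron-specific of them, had 0.16 (standard error 0.20).

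Of the list of 11 miRNAs reported to respond to neuronal activity, 10 entered the test and limma called 0 in either direction, beside 1.03% of the 290. At an unadjusted p under 0.05 there were 4 of the 10, beside 9.31% of the 290, with miR-146a-5p higher and miR-335-5p, miR-132-3p and miR-212-3p lower in SE. The log2 fold change was below 0 for 5 and above 0 for 5, with a median of 0.00 beside -0.07 over the 290. The most abundant were miR-138-5p, which limits dendritic spine size, at 0.14, miR-335-5p at -0.60, miR-129-5p at -0.14 and miR-181a-5p at -0.03. Both lists hold miR-132-3p (-0.51, limma adjusted p = 0.393) and miR-212-3p (-0.72, limma adjusted p = 0.231), which share a primary transcript. miR-146a-5p, a brake on NF-kB signalling, had 0.65 (limma adjusted p = 0.385). miR-188-5p lay under the filter.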

How the data were processed

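Per the labels' protocols, RNA was prepared with a miRNeasy kit and DNase, and libraries with the QIAseq miRNA kit. The submitters' processing notes name build mm9 and DESeq2. The aligner, the counter, the miRNA annotation and any use of molecular identifiers are not given in the sources used here. The authors' deposited RPM are reads scaled to 1000000 miRNA reads a library. Their comparison table holds, per the file headers, a base mean (a signal of normalized counts averaged over libraries), a log2 fold change with its error, a Wald score and p-values, all deposited by the authors and not refitted.

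All RPM values were whole numbers of reads, to within 0.01, once the lowest value of each column was set to 2 reads, which gave depths and reads. No count test was run. SE size factors came from miRNAs whose base mean held SE reads alone, first sought among strongly negative fold changes of the authors' table. The CON total of a miRNA was its base mean times 6, less its SE reads over their size factors. It was at 0 for 88 miRNAs, and each of the other 687 matched a CON row within a relative 1e-05 (largest difference 1.68e-09).

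limma 3.58.1 (R 4.3.3) was run on log2(RPM + 1), a scale that understates changes of low miRNAs. The fit was checked on simulated data with far larger changes than those of the guide arms, so changes of their size were not checked. A mean of at least 10 RPM was needed, with group as the factor. Tables were made in Python 3.11.15 (pandas 2.3.3, numpy 2.4.6), intervals with scipy 1.17.1 and figures with matplotlib 3.10.9. Named miRNAs were the members, the 3 closest profiles and 2 neighbours in level on each side of each guide arm, the 4 most abundant members of each list, and the cell type markers. In the lists, miR-124-3p, miR-146a-5p, miR-132-3p, miR-212-3p and miR-188-5p were also named after their values were seen. Members and lists were chosen with earlier results of these data known. Alternatives were other pseudocounts, filters and scaling, the replicate number as a block, each library left out, and the CON rows as deposited.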

Additional observations from a re-analysis of the deposited data

How the results depend on the processing

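The count of miRNAs called by limma, 3, was 0 if the CON rows kept their deposited names, where 2 were at an unadjusted p under 0.05. It was 3 to 6 with each library left out, with 6 without CON replicate 2 and 5 without CON replicate 3. It was 4 with a pseudocount of 5 RPM, 4 without a filter and 2 with the 50 RPM filter. miR-26a-5p had -0.23 with the CON rows as deposited and -0.13 to 0.14 with each library left out. miR-26b-5p kept its direction under all 13 alternatives, at -0.35 to -0.20 with each library left out, and was not called under any, with limma adjusted p from 0.261 to 1.00. For miR-26a-5p the adjusted p ran from 0.792 to 1.00. The difference in mean log2(RPM + 1), SE minus CON, was 0.16 for miR-26a-1-3p (0.02 to 0.35 with each library left out), 0.72 for miR-26a-2-3p (0.38 to 1.00) and 0.64 for miR-26b-3p (0.40 to 0.97). With the CON rows as deposited it was -0.0398 for miR-26a-2-3p and 0.12 for miR-26b-3p. With a pseudocount of 5 RPM it was 0.06 for miR-26a-1-3p, 0.23 for miR-26a-2-3p and 0.17 for miR-26b-3p, and with 0.5 RPM it was 0.20, 1.02 and 1.02 in the same order. The difference in the ratio of the guide arms, 0.795, was 0.485 to 1.23 with each library left out, and that of the opposite arm share, 0.0128 percentage points, 0.0103 to 0.0148. Replicate numbers gave no sign of pairing: the deviations of same-numbered SE and CON libraries correlated at -0.42, -0.25 and 0.04 over the 290 miRNAs. Those of libraries with unlike numbers ran from -0.20 (SE replicate 3 with CON replicate 2) to 0.42 (SE replicate 1 with CON replicate 2). Deviations within a group cancel out, so these values cannot exclude a pairing. With the replicate block, 3 miRNAs were called, and miR-26a-5p and miR-26b-5p had 0.01 and -0.27 with adjusted p of 0.983 and 0.761. The 50 RPM filter and the block were not run for the opposite arms. With 3 libraries a group, changes of the guide arms smaller than the distance from the centre to an end of their intervals cannot be shown. A call at the adjusted p threshold needs a larger change still. The opposite arms, with at most 24 reads in a library, are limited by counting.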
